A study of Mus musculus with 4 samples.

Results

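The lipid droplet coat genes examined here were Plin2, Plin3, Plin4 and Plin5 of the perilipin family and Cidea and Cidec of the Cide family. Members were taken by gene symbol, and all 6 named genes had a probe set, 1 each, among the 22690 probe sets of the array (12393 genes with a single symbol). RNA came from gastrocnemius, a calf muscle of mixed but mostly fast fibres, on 4 Affymetrix arrays. The first group was 2 samples of MCK-PPARa mice, which carry a transgene for the nuclear receptor PPARα that is expressed in muscle, and the second was 2 samples of their non-transgenic (NTG) littermates. The MCK promoter, that of the muscle creatine kinase gene, is active in skeletal and heart muscle. The sources used here do not give age, sex, strain, feeding state or the number of transgenic lines. The design text describes 2 mice per genotype but the labels do not say which mouse gave which array, so p-values cover only the spread between these samples, which may be technical. Arrays are called control (NTG) and transgenic (MCK-PPARa) from here on, with replicate 1 given first.

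A lipid droplet is a core of triglyceride under a single layer of phospholipid, and the proteins that sit on that layer decide how readily lipases reach the core. Perilipins are the main coat proteins. Plin2 and Plin3 are found on droplets of most cells, Plin5 in tissues that burn fat, such as heart, slow muscle and liver, and Plin4 chiefly in fat and muscle. Cidea and Cidec gather at contacts between droplets and move lipid from smaller to larger ones. They are best known from brown and white fat. PPARα is a transcription factor that binds DNA with a retinoid X receptor at direct repeats of the letters AGGTCA spaced by a single base, and it turns on genes of fatty acid use in muscle and liver. Several droplet coat genes are known targets of the PPAR family.

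Of the 6 genes, Plin5 and Cidea rose in MCK-PPARa muscle. Plin2, Plin3 and Plin4 did not pass the test, and Cidec was too dim to enter it. Plin5 was higher by 3.03 ± 0.34 (SE, n = 2 per group) and Cidea by 4.42 ± 0.41 on a log2 scale. Plin2, Plin4 and Cidec had smaller differences above 0, and Plin3 a difference below 0 that rested on 1 array. Differences are MCK-PPARa minus NTG in log2(signal + 64.2), where signal is the MAS5 intensity and 64.2 is an offset set at 10% of the overall median signal. On this scale the change of a dim gene reads smaller than its ratio of signals. The test was limma's over 8402 genes, two-sided, and a gene passed where its Benjamini-Hochberg adjusted p was under 0.05. An exact permutation test of 2 arrays against 2 cannot go below a two-sided p of 0.333, so no such test was used for single genes.

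The RNA carried the marks of skeletal muscle, and the targeted gene was higher on both arrays labelled transgenic. Signals for Ppara were 633 and 2674 on the control arrays and 7969 and 15226 on the transgenic arrays. Its difference was 3.003 ± 0.621, which did not pass (limma adjusted p = 0.21, or 0.00085 with replicate numbers fitted as blocks). With 1 array left out it ran from 2.02 (without NTG replicate 1) to 3.99 (without NTG replicate 2). Array medians ran from 582 to 700.3, and the 2% trimmed means from 1500.6 to 1500.7. Of 10 skeletal muscle markers, among them Ckm (0.34 ± 0.32), Des (0.40 ± 0.47) and Atp2a1 (0.31 ± 0.37), all were tested and none passed or had an unadjusted p under 0.05, and the median difference was 0.14. Ckm, the muscle creatine kinase, read 188632 and 168024 on the control arrays and 233215 and 216517 on the transgenic arrays. The replicate 2 arrays of both groups stood apart in the 18S ribosomal RNA controls. The 5′ probe set of these read 2202 (control) and 2313 (transgenic) for replicate 1, but 28.9 and 44.7 for replicate 2. The labels do not say what a replicate number marks. Differences are therefore also given within each replicate number, and with the number as a block in the fit. The block takes up 1 of the 2 degrees of freedom from the arrays, so its p-values lean mostly on the spread of other genes. A smaller p with the block is not by itself stronger evidence. Over all genes tested, 5 passed without the block (0.0595%, of which 4 were higher, 0.0476%) and 211 with it (2.51%, of which 122 were higher, 1.45%). At an unadjusted p under 0.05 without the block there were 490 (5.83%).

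**Figure D1:**
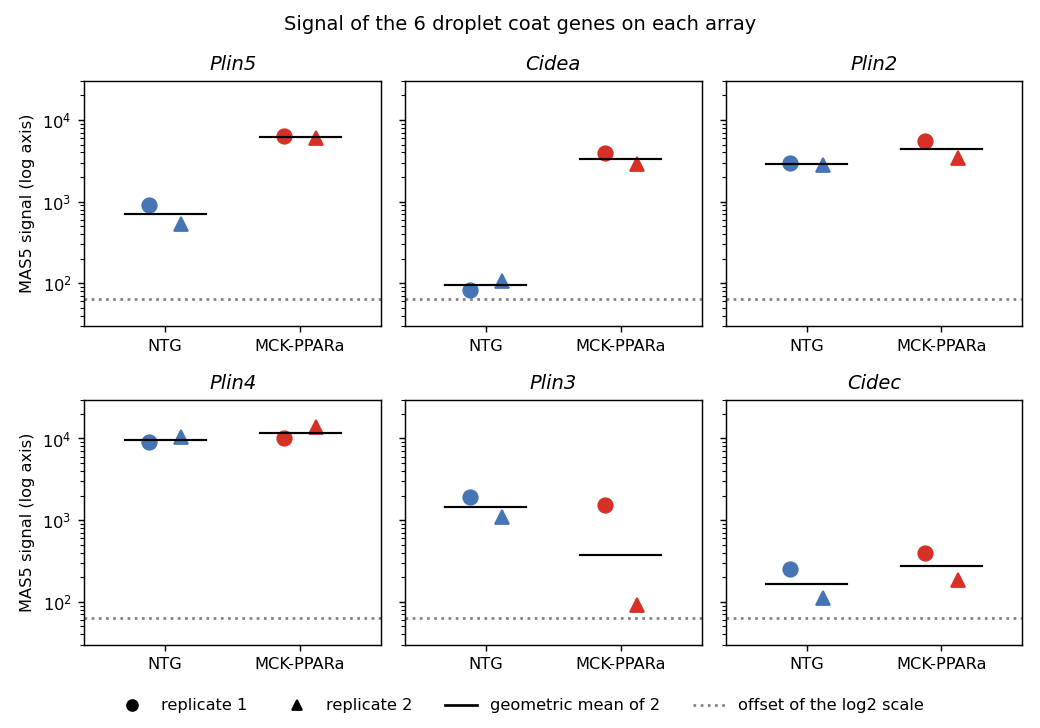
MAS5 signal (log axis) of each of the 6 genes on the 4 arrays, with circles for replicate 1, triangles for replicate 2, bars at the geometric mean of 2 arrays and a dotted line at the offset of 64.2. Plin5 and Cidea are far higher on both MCK-PPARa arrays, Plin4 is nearly level, and Plin3 is low on the MCK-PPARa replicate 2 array alone.

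Plin5 (probe set 1424937_at) encodes the perilipin that ties droplets to mitochondria and restrains the triglyceride lipase Pnpla2 at rest. Its signal was 918 and 531 on the control arrays and 6336 and 6038 on the transgenic arrays. The groups did not overlap, and the lower of them was 6.58 times the higher control. The transgenic arrays differed from each other by a factor of 1.05 and the controls by 1.73. The difference was 8.17-fold on the log2(signal + 64.2) scale (3.03 ± 0.34, 95% interval 2.24 to 3.82, limma adjusted p = 0.041, and 0.00048 with the replicate block). It was 2.70 within replicate 1 and 3.36 within replicate 2. Within the controls Ppara was higher on the replicate 2 array and Plin5 on the replicate 1 array. These arrays also differ in replicate number, and a relation between the signals of these genes was not tested. Plin5 did not pass in a limma fit without a variance trend (adjusted p = 0.12), nor after median centring (0.13) or quantile normalization (0.11), while its size stayed between 2.66 and 3.39 under all 13 alternatives. In the test of all 20380 single-symbol probe sets with no filter, its limma adjusted p was 0.056, where 0.0196% of probe sets passed.

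Plin4 (1418595_at), a large perilipin with a long run of repeats, stands next to Plin5 on chromosome 17 with 0 annotated genes between them in RefSeq's GRCm38.p6 gene table. Its signal was 8949 and 10393 on the control arrays and 10096 and 13756 on the transgenic arrays. The groups overlapped, since the first transgenic array lay below the second control. The difference was 0.29 ± 0.31 (95% interval -0.43 to 1.00, limma adjusted p = 0.97, and 0.53 with the block), with 0.17 within replicate 1 and 0.40 within replicate 2. Without MCK-PPARa replicate 2 it was 0.066, and without MCK-PPARa replicate 1 it was 0.51. The interval of Plin4 ended below the lower bound of 2.24 for its neighbour Plin5, and the difference between the 2 genes was not tested. Plin3 lies on the same chromosome with 9 annotated genes between it and Plin5.

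The 250 bases before the annotated starts of Plin5 and Plin4 are shown because Plin5 passed the test and its neighbour Plin4 did not, and those of Plin2 because it is a coat gene of most tissues that did not pass. They come from RefSeq's promoter table for GRCm38.p6, in which 5 of the 6 genes (all but Cidea) were found, and all 3 are on the minus strand, printed 5′ to 3′. Plin5 and Cidec have 2 starts each in the table, and the first listed is shown for Plin5. Capitals mark matches to AGGTCA on either strand, the single repeat of a PPAR response element.
Plin5, chr17:56117549-56117798: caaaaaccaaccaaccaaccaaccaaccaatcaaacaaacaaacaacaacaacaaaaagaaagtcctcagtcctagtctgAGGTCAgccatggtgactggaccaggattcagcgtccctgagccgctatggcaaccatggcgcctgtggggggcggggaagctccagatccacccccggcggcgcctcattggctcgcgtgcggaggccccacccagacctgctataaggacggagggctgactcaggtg
Plin4, chr17:56109783-56110032: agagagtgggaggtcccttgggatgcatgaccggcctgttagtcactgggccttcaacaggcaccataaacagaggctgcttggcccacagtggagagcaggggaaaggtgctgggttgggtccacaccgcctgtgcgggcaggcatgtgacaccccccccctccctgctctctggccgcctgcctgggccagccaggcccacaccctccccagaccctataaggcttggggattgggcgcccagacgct
Plin2, chr4:86670060-86670309: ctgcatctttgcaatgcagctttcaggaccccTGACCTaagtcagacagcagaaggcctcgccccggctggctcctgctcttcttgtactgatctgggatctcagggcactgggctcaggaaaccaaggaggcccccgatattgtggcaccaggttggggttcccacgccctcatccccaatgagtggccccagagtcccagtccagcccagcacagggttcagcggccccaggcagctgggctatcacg

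In the Plin5 window AGGTCA occurs once on the printed strand, beginning 170 bases before the start. In the Plin2 window it occurs once on the other strand, beginning 218 bases before the start. Plin4 has no match in its window, nor have Plin3, either Cidec start or the second Plin5 start. Of 32851 windows of 250 bases in the table, 14% hold AGGTCA, so a match is common. The full direct repeat AGGTCANAGGTCA, searched on both strands, is in 0.0335% of windows, and the looser AGGNCANAGGNCA, which contains the first, in 0.338%. None of the windows of the 5 genes holds either. These are letter matches in a short window and say nothing of binding.

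Cidea (1417956_at), the Cide protein of brown fat, was close to the bottom of the signal range in control muscle. Its signal was 83.3 and 107 on the control arrays, at percentiles 14.7 and 15.6 of all signals there, and 3900 and 2874 on the transgenic arrays, at percentiles 89.2 and 85.0. The lower transgenic array was 26.8 times the higher control. The difference was 4.42 ± 0.41 (95% interval 3.48 to 5.36, limma adjusted p = 0.019, and 0.00051 with the block), with 4.75 within replicate 1 and 4.10 within replicate 2. Because the control signals lie near the offset, the size followed it, from 3.14 where the offset was 50% of the median signal to 5.05 where it was 1%. Detection calls were not used here, so it cannot be said whether the control signals exceeded background. Cidea entered the test through the transgenic arrays alone, since its control signals lie under the filter of 455. The call was lost with median centring (adjusted p = 0.051) and with the filter at the 60th percentile (0.060).

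Cidec (1452260_at), the related protein of white fat that builds large single droplets, was dim on all 4 arrays. Its signal was 250 and 111 on the control arrays and 397 and 186 on the transgenic arrays, so that the groups overlapped. In both groups the replicate 1 array was the higher, by factors of 2.25 and 2.14. Its mean lay under the filter, and in the fit of all 20380 probe sets the difference was 0.53 ± 0.59 (95% interval -0.82 to 1.89, limma adjusted p = 0.98, and 0.75 with the block). The difference was 0.56 within replicate 1 and 0.51 within replicate 2. In the same fit Cidea had 4.42 ± 0.45 (limma adjusted p = 0.038).

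Plin2 (1448318_at), the general droplet coat that is stable only while bound to lipid, was higher on both transgenic arrays than on both controls without passing the test. Its signal was 3011 and 2792 on the control arrays and 5564 and 3464 on the transgenic arrays. The groups did not overlap, and the lower transgenic array was 1.15 times the higher control. The difference was 0.59 ± 0.33 (95% interval -0.18 to 1.36, limma adjusted p = 0.95, and 0.26 with the block). It was 0.87 within replicate 1 and 0.30 within replicate 2. Without MCK-PPARa replicate 1 it was 0.25, and without MCK-PPARa replicate 2 it was 0.93. The interval without the block takes in 0, while with the block the difference was 0.59 ± 0.23 at an unadjusted limma p of 0.028. The share of all genes under 0.05 in that fit was not counted. Plin3, whose difference rested on 1 array, had a smaller unadjusted limma p there, 0.012.

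Plin3 (1416424_at), a perilipin that moves from the cytosol to newly formed droplets, was low on 1 of the 4 arrays. Its signal was 1931 and 1086 on the control arrays and 1533 and 90.7 on the transgenic arrays. The first transgenic array lay between the controls, and the second was at percentile 10.2 of its array. The transgenic arrays thus differed by a factor of 16.9, more than for any other of the 6 genes. The difference was -1.61 ± 0.94 (95% interval -3.80 to 0.58, limma adjusted p = 0.96, and 0.18 with the block), with -0.32 within replicate 1 and -2.89 within replicate 2. Without MCK-PPARa replicate 2 it was 0.076, and without MCK-PPARa replicate 1 it was -3.29, so that its direction depended on which array was left out.

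**Figure D2:**
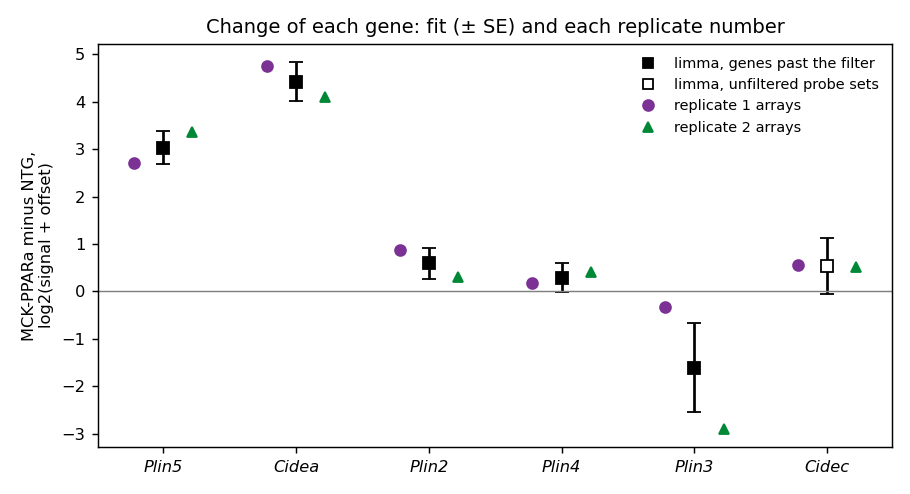
Difference between MCK-PPARa and NTG in log2(signal + 64.2) for each gene. Squares with bars are limma estimates ± SE (n = 2 per group; open for Cidec, which was fitted among unfiltered probe sets), circles and triangles the differences within replicate 1 and within replicate 2. Plin5 and Cidea lie at 2.70 or above by every measure, and the 2 values of Plin3 lie far apart.

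**Figure D3:**
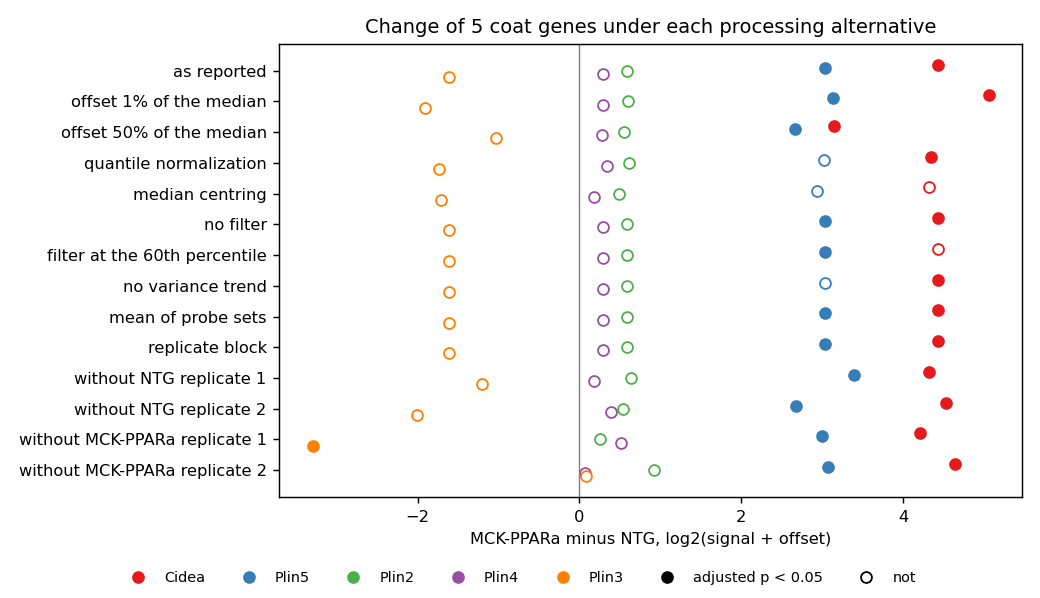
Difference between MCK-PPARa and NTG in log2(signal + offset) for 5 coat genes as reported and under each of 13 processing alternatives; a filled point passed a limma adjusted p of 0.05. Cidea and Plin5 keep their direction throughout, and Plin3 moves from -3.29 to 0.076 with the array left out.

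Of the 5 genes that passed the filter, 2 rose and 3 did not pass, against 0.0476% of all genes that rose. Cidea and Plin5 also passed with the replicate block, against 1.45%. In 3 of the 5 tested, Plin5, Cidea and Plin2, both transgenic arrays exceeded both controls, as for 20.4% of all genes. The median difference of the 5 was 0.59, against 0.054 for all genes tested. Among the 8402 genes, Cidea ranked 2 and Plin5 ranked 6 from the largest rise, and Ppara ranked 7. Cidea reached the test only through its high group, and the genes were chosen with earlier results known, so these counts describe the genes and do not support them.

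Fat cells between muscle fibres also express several of these genes, and in muscle RNA more cells of a type and more RNA per cell cannot be told apart. Of 10 white adipocyte markers 8 had a probe set and 6 were tested. None passed, 5 were higher at an unadjusted p under 0.05 (3.32% of all genes), and 3 passed with the block (1.45% of all genes), Fabp4 (1.93 ± 0.38), Thrsp (1.78 ± 0.35) and Adipoq (1.34 ± 0.31). With 1 array left out Fabp4 ran from 1.42 (without MCK-PPARa replicate 1) to 2.43 (without MCK-PPARa replicate 2), and Thrsp from 1.39 to 2.17. The summed signal of the 8 was 10224 and 9579 on the control arrays and 36473 and 22826 on the transgenic arrays. Adipoq, the adipokine made by fat cells, read 1072 and 1504 on the control arrays and 3477 and 3180 on the transgenic arrays. Lep stayed between 76.9 and 124.5 and Pparg between 36.8 and 55.7 on the 4 arrays, both under every array's median, and no marker was at 0. Plin1, the perilipin of fat cells, and Cfd were not analysed here. The part of adipocytes in the rises of Plin5 and Cidea was not tested.

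Markers of brown fat, where Cidea is best known, did not pass, and Ucp1 was dim on all 4 arrays. Ucp1, the uncoupling protein that defines brown fat, read 102 and 81.4 on the control arrays and 81.1 and 86.9 on the transgenic arrays. Of 8 brown adipocyte markers 6 had a probe set and 3 were tested, Dio2 (0.62 ± 0.42), Ebf2 (0.24 ± 0.37) and Elovl3 (0.081 ± 0.458). None of the 3 passed with or without the block, nor had any an unadjusted p under 0.05 in either fit. Dio2, a deiodinase, was 0.095 with the mean of its probe sets and ran from 0.13 (without MCK-PPARa replicate 2) to 1.11 (without MCK-PPARa replicate 1) with 1 array left out. The direction of Elovl3 turned under quantile normalization and median centring. The summed signal of the 6 was 2231 and 2636 on the control arrays and 2499 and 4192 on the transgenic arrays. Dio2, Zic1 and Lhx8 were higher on both transgenic arrays than on both controls, while Ebf2, Elovl3 and Ucp1 overlapped. Of all genes tested 20.4% were higher in this way. Zic1 and Lhx8 were not among those tested, and no share was counted for genes under the filter. Dio2 read 694 and 750 on the control arrays and 798 and 1636 on the transgenic arrays. Zic1, not tested, read 239 and 331 against 334 and 633. Lhx8, a transcription factor used as a brown fat marker and not tested, read 12 and 17.1 against 37.3 and 32.8, all under the offset. No marker was at 0.

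Markers of the other cell types in muscle did not pass in any list of limma tests without the block, nor with it. The median difference was 0.24 for 6 macrophage genes, 0.35 for 5 endothelial genes and 0.19 for 6 fibroblast genes. At an unadjusted p under 0.05 there was 1 endothelial gene higher, Kdr (0.91 ± 0.32), and 1 fibroblast gene lower, Pdgfra (-0.90 ± 0.37, and -0.31 ± 0.35 with the mean of its probe sets). Over all genes tested 5.83% were under 0.05 in either direction, and 3.32% were under it and higher. The other markers named by the rule were Lyz2 (0.55 ± 0.30), Adgre1 (0.47 ± 0.34), Csf1r (0.28 ± 0.30), Cdh5 (0.46 ± 0.31), Pecam1 (0.35 ± 0.32), Lum (0.35 ± 0.32) and Col1a2 (0.33 ± 0.32).

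Lipases and their regulators act on the droplets that perilipins coat. Of 10 such genes all had a probe set and 9 were tested. None passed without the block, 4 were higher at an unadjusted p under 0.05 (3.32% of all genes), and 4 passed with the block (1.45%): G0s2, Ces1d, Mgll and Pnpla2. G0s2, which inhibits Pnpla2 on the droplet, went from 1331 and 1759 on the control arrays to 6422 and 8115 on the transgenic arrays (2.19 ± 0.31, limma adjusted p = 0.082, and 0.0011 with the block). The carboxylesterase Ces1d went from 297 and 355 to 1748 and 2102 (2.35 ± 0.36, adjusted p = 0.087, and 0.0044 with the block). Its control signals lie under the filter, so Ces1d entered the test through the transgenic arrays alone. Both counts of 4 include it, so setting them against the shares of all genes is only a description. G0s2 and Ces1d also passed without the block where the probe sets of a gene were averaged (limma adjusted p = 0.047 for each). In that fit 16 of the 8402 genes passed, against 5 in the main fit. With 1 array left out G0s2 stayed between 2.00 and 2.38 and Ces1d between 2.22 and 2.48. Mgll, which cleaves monoglycerides, had 1.19 ± 0.30, and Pnpla2, the first triglyceride lipase, 1.09 ± 0.33. Abhd5, the activator of Pnpla2 that perilipins hold back, had 0.14 ± 0.39, and the hormone-sensitive lipase Lipe 0.30 ± 0.37. The median of the 9 was 0.56.

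Genes that form droplets or sit on them, other than the coat genes, had differences between -0.55 and 0.74. The upper end was Ldah, a droplet hydrolase (0.74 ± 0.40), which had 0.19 ± 0.53 with the mean of its probe sets. Of 22 listed, 15 had a probe set and 14 were tested, with 9 above 0 and 5 below, and a median of 0.17. None passed with or without the block. None had an unadjusted p under 0.05 without the block. With the block the unadjusted limma p was 0.027 for Fitm1, 0.028 for Pcyt1a, 0.040 for Hsd17b11 and 0.048 for Rab18. The share of all genes under 0.05 in that fit was not counted, so these values have no comparison. The smallest p without the block were those of Pcyt1a (-0.55 ± 0.29), which makes phospholipid for the droplet surface, Ldah, Hsd17b11 (0.49 ± 0.29) and Aup1 (-0.49 ± 0.30). Fitm1, a protein of droplet formation in muscle, read 38026 and 18593 on the control arrays and 26571 and 13485 on the transgenic arrays, with overlapping groups. Cideb, the third Cide gene, read 607 and 421 on the control arrays and 578 and 679 on the transgenic arrays (0.28 ± 0.45). Both Fitm1 and Cideb were picked for their function after the values were seen.

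Proteins that link droplets to mitochondria or work with Plin5 were not among the genes that passed. Of 9 listed, 8 had a probe set and 7 were tested, with 2 above 0 and 5 below, and a median of -0.16. None passed or had an unadjusted p under 0.05, with or without the block. Slc27a4, the fatty acid transporter that Plin5 binds at mitochondria, had -0.31 ± 0.32, the fusion protein Vamp4 -0.48 ± 0.33, Snap23 -0.25 ± 0.32 and Miga2 0.38 ± 0.31, whose direction turned with the mean of its probe sets. Ppargc1a, the coactivator of PPARα, had -0.043 ± 0.301 and was picked after its values were seen.

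Of 14 triglyceride synthesis genes 12 had a probe set and 9 were tested, with 8 above 0 and a median of 0.70. None passed without the block, 3 were higher at an unadjusted p under 0.05 (3.32% of all genes), and 1 passed with the block (1.45% of all genes). That gene was Dgat1 (1.14 ± 0.29, limma adjusted p = 0.027 with the block), which forms triglyceride in the last step. Agpat3 (0.90 ± 0.29), Gpam (0.74 ± 0.32) and the other final enzyme, Dgat2 (0.74 ± 0.34), did not pass. Of 20 PPAR targets outside the droplet 16 had a probe set and 13 were tested. All 13 tested were above 0, with a median of 1.70. None passed without the block, 11 were higher at an unadjusted p under 0.05, and 11 passed with the block, against the same shares of all genes, 3.32% and 1.45%. The smallest p were those of Angptl4 (3.17 ± 0.45), Slc25a20 (2.36 ± 0.34), Pdk4 (2.39 ± 0.49) and Cd36 (1.70 ± 0.35). Angptl4, at 138.5 and 169 on the control arrays, entered the test through the transgenic arrays alone. Like G0s2 and Ces1d, it passed without the block where probe sets were averaged (limma adjusted p = 0.047). Both counts of 11 include Angptl4, so setting them against the shares of all genes is only a description. The targets with a probe set below the filter were not tested. Vnn1 among them was lower, at 412 and 548 on the control arrays and 344 and 387 on the transgenic arrays. Fgf21 read 111 and 102 against 110 and 191, and Acot1 126 and 200.5 against 231 and 522. Plin5 lay within the range of the tested targets, 0.32 to 3.17, and Cidea above it. Plin2 (0.59) lay within the range but under the median of the targets, and Plin4 (0.29) lay just below the range.

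**Figure D4:**
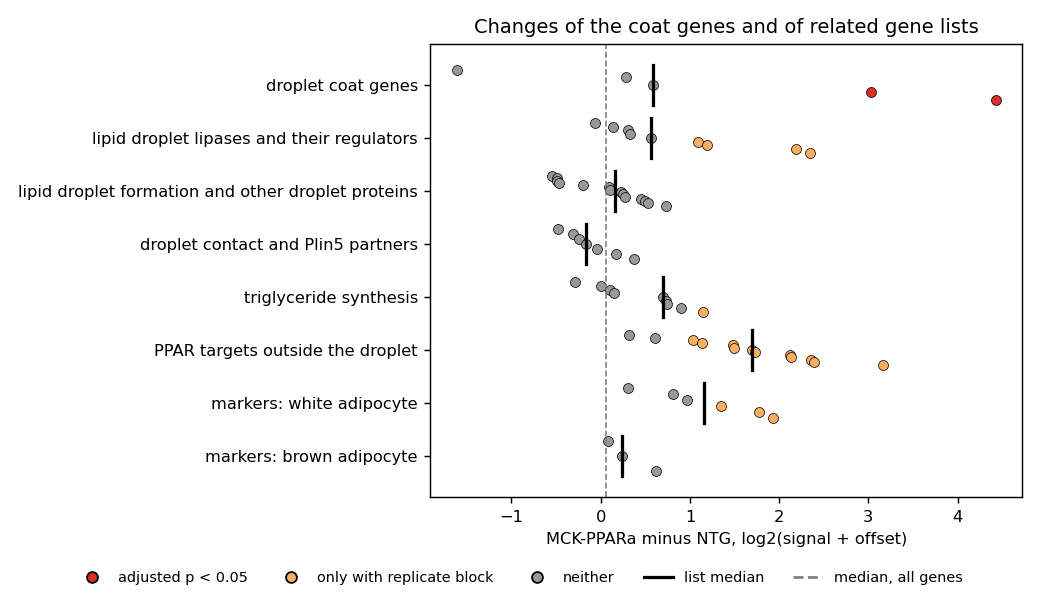
Difference between MCK-PPARa and NTG in log2(signal + 64.2) for the 5 coat genes that passed the filter and for the tested genes of 7 related lists. Each point is a gene, coloured by whether it passed a limma adjusted p of 0.05, passed only with the replicate block, or neither; black bars are list medians and the dashed line is the median of all genes (0.054). The 2 points that passed without the block are Plin5 and Cidea, and the coat genes run from -1.61 to 4.42.

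The genes whose 4 array values lay nearest to those of Plin5, by root mean square difference of log2 values centred on each gene's mean, were Mtarc1 (0.17), Aqp7 (0.23), Serpinb1a (0.25), Chrna2 (0.36) and Ephx2 (0.37). Mtarc1, a mitochondrial reductase, read 579 and 478 on the control arrays and 4880 and 4721 on the transgenic arrays. Aqp7, a channel for glycerol and water, read 117 and 59.4 on the control arrays and 1054 and 757 on the transgenic arrays, with control signals around the offset. Nearest to Cidea were Chrna2 (0.50), Angptl4 (0.63), Mtarc1 (0.72), Plin5 (0.78) and Sln (0.83), at larger distances than for Plin5. Genes were picked for likeness over 4 arrays, so their own differences are a description.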

How the data were processed

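The authors deposited 1 table of signal intensity, linear and 1 array per sample, made with MAS5 per the submitters' processing notes. The sources used here do not give its version, settings or detection calls. Equal trimmed means marked global scaling, so no further normalization was applied. Gene names came from the array platform's annotation: 20380 had 1 symbol, and 691 with several, 1555 with none and 64 controls were left out. Values became log2(signal + 64.2). Only probe sets with a mean signal of at least the 40th percentile (455) were kept, and a gene was read from its brightest. Groups were tested with limma 3.58.1 in R 4.3.3 (lmFit, eBayes with a variance trend, 7.78 moderated degrees of freedom, 2 from the arrays). The fit was tested on simulated data. A second fit covered all single-symbol probe sets. Alternatives were the offset, normalization, filter, variance trend, probe set rule, replicate block and each array left out.

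The members and lists were chosen with earlier results of these data known. Named were all members and Ppara, the 4 smallest p of each list (3 for cell types), cell type markers below the array medians where they define the type, and the 5 genes nearest in pattern to Plin5 and to Cidea.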

Additional observations from a re-analysis of the deposited data

How the results depend on the processing

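The main comparison had 5 genes past the threshold. The count was 2 with quantile normalization (both higher), 1 with median centring (higher), 3 without a variance trend (all higher), 16 with the mean of probe sets, 211 with the replicate block, and 72 to 150 with 1 array left out. In the last, a lone array is assumed to vary like the other group, so passing there is no support. Median centring moved the median of all genes by -0.10. Of the coat genes, 2 passed (Cidea and Plin5). This became 1 with quantile normalization (Cidea), 1 without a variance trend (Cidea), 1 with the filter at the 60th percentile (Plin5) and 0 with median centring, where 2 had an unadjusted limma p under 0.05. With 1 array left out, 2 to 3 passed, the third being Plin3. Among all single-symbol probe sets 1 coat gene passed, 2 with the replicate block and 0 with an offset of 50% of the median (2 at an unadjusted p under 0.05). The median of the coat genes stayed between 0.49 and 0.93.

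Directions turned for Plin3 without MCK-PPARa replicate 2 (0.076, in a range of -3.29 to 0.076 with 1 array left out), Miga2 with the mean of probe sets (-0.017), Elovl3 with quantile normalization (-0.034), median centring (-0.021), without NTG replicate 1 (-0.027) and without MCK-PPARa replicate 2 (-0.17, in a range of -0.17 to 0.33 with 1 array left out), and Des without NTG replicate 2 (-0.13) and without MCK-PPARa replicate 1 (-0.086). The cause was not tested. Leaving aside the fits with 1 array left out, Cidea passed in all alternatives but median centring and the filter at the 60th percentile. Plin5 passed in all of these but quantile normalization, median centring and the fit without a variance trend. Plin2 and Plin4 passed in none. With the replicate block every coat gene kept its side of the threshold in the comparison of filtered genes. Deviations from group means correlated at 0.47 between arrays of the same number (across genes, which share arrays and are not replicates). The number of arrays, 2 per group, limits the precision.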

Other observations

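Of the triglyceride synthesis genes below the filter, 2 are given here as values, chosen after these were seen and not tested. Mogat2, which acylates monoglyceride, read 116 and 167 on the control arrays and 427 and 257 on the transgenic arrays. Lpin3, a phosphatidate phosphatase, read 70.3 and 62.9 in NTG, 680 on MCK-PPARa replicate 1 and 55.5 on MCK-PPARa replicate 2, so that the second lay below both controls.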
